A study of Homo sapiens with 6 samples.

Results

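The genes described here are those of prostaglandin E2 synthesis, sensing and breakdown in MCF10A cells, an established line of mammary epithelial cells, grown with or without growth factors. They were listed by name, with earlier results of these data known. The list held 8 genes: the cyclooxygenases PTGS1 and PTGS2, the prostaglandin E synthases PTGES, PTGES2 and PTGES3, the receptors PTGER2 and PTGER4, and the degrading enzyme HPGD. Of the 19198 genes of the expression table, 7 were members of this list, and PTGER2 is not analysed here. Each of the 7 passed the filter of a mean of at least 10 normalized counts, and did so in each condition taken alone.

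The study used RNA-Seq of total RNA depleted of ribosomal RNA to compare MCF10A cells under normal and growth factor depleted conditions, as a cell model of epithelial to mesenchymal transition without added TGFβ. The 3 control samples had insulin at 10 µg/ml, EGF at 20 ng/ml, cholera toxin at 100 ng/ml and hydrocortisone at 0.5 µg/ml. The 3 depleted samples had none of these, and all 6 samples had DMEM:F12 with 5% horse serum and antibiotics. Glutamine was in the control medium, and for the depleted medium the labels list it but the methods do not. Hydrocortisone is a glucocorticoid and cholera toxin keeps the Gs protein active, so that the depleted medium lacked a steroid and an agent that raises cAMP as well as insulin and EGF. All of them were removed together and their separate parts cannot be told apart. Depleted cells were kept in this medium until their morphology changed, and how long the cells of these libraries had been in it is not given in the sources used here. The labels list 3 samples for each condition, whereas the design text of the series speaks of 2 replicates, and the labels were followed. Nothing says whether the replicates were separate cultures, so the p-values measure the spread between these samples, which may be technical.

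Prostaglandins are made from arachidonic acid, which phospholipases release from membranes. A cyclooxygenase turns it into prostaglandin H2, and a terminal synthase then makes one prostanoid from that common precursor. Prostaglandin E2 signals through the EP receptors, of which EP2 (PTGER2) and EP4 (PTGER4) raise cAMP through Gs, and it is inactivated by the dehydrogenase HPGD. In mammary epithelium and breast tumors the inducible cyclooxygenase PTGS2 is the best known member of this pathway.

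Of the measured members, 2 rose and 1 fell upon growth factor depletion. PTGS2 and PTGER4 were up-regulated, with group means 8.41-fold and 9.92-fold higher without growth factors. PTGES, the inducible prostaglandin E synthase, was down-regulated, with a mean 4.31-fold higher in control cells. PTGS1, PTGES2, PTGES3 and HPGD did not pass the test. A gene was taken as differentially expressed when limma gave a Benjamini-Hochberg adjusted p under 0.05 over all genes tested and the change was at least 2-fold on the scale of log2(normalized count + 1). By this rule 3 of the 7 members were differentially expressed, against 6.33% of the 16988 genes tested. On the recovered reads, edgeR called the same 3 members (5.72% of all genes) and DESeq2 called HPGD as well (12.4% of all genes). The 2 members higher without growth factors compare with 4.36% of all genes, and the 1 member lower compares with 1.97%. In 3 of the 7 members the samples of the conditions did not overlap, which held for 25.6% of all genes. The median log2 fold change was -0.04 over the 7 members and -0.03 over all genes tested. In bulk RNA, fewer cells that express a gene and less RNA per cell cannot be told apart.

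**Figure D1:**
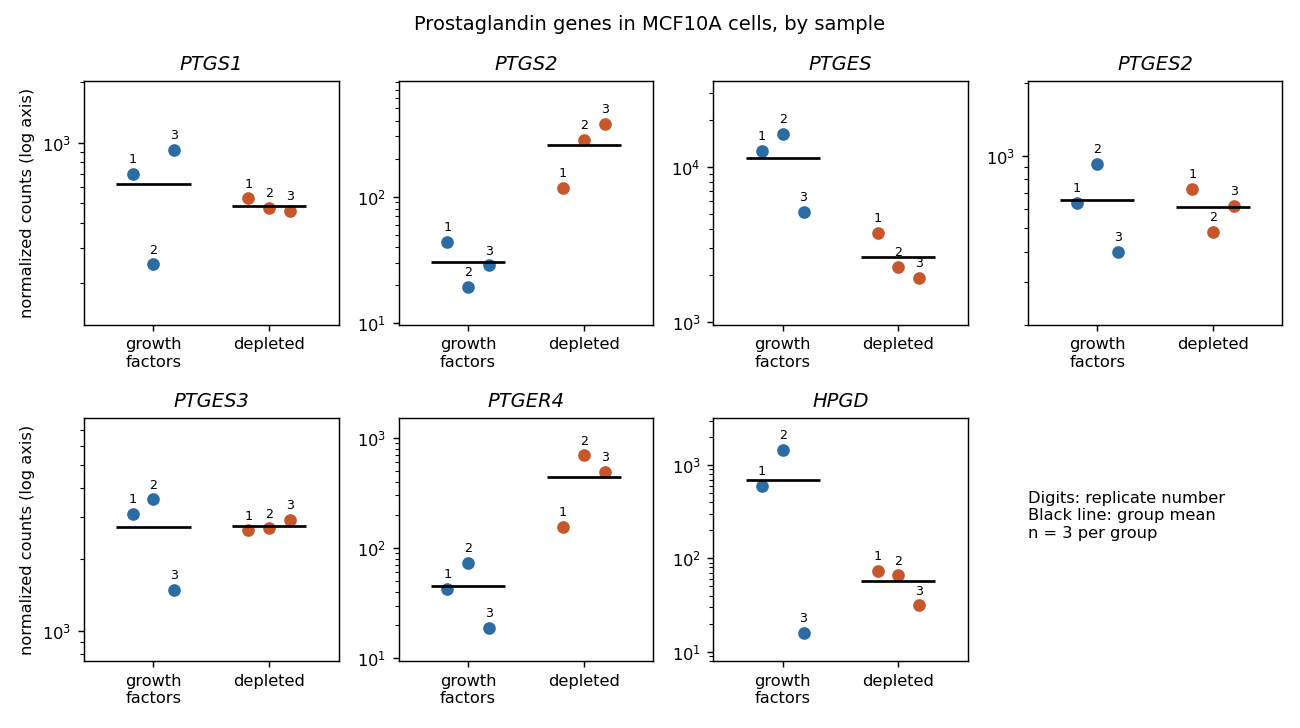
Normalized counts (log axis) of the 7 measured genes in each sample, with control samples in blue, depleted samples in orange, replicate numbers above the points and group means as black lines (n = 3 in each condition). The conditions did not overlap for PTGS2, PTGES and PTGER4, and control replicate 3 lay apart from the other controls for HPGD.

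The depth ran from 7472418 to 28672630 reads on genes per sample. A count of 3 reads equals 1.76 to 6.71 normalized counts, depending on the library, and serves as the floor, for counting error alone. The lowest count of a member was 14 reads, for HPGD in depleted replicate 3. Control replicates 2 and 3 stood apart for long and short transcripts. Across 13035 genes, which are not independent replicates, transcript length and the deviation of a sample from the mean of all samples had a Spearman correlation that was -0.36 in control replicate 2 and 0.37 in control replicate 3, and it lay between -0.17 and 0.22 in the other samples. Control replicate 3 was the lowest control sample for PTGES, PTGES2, PTGES3, PTGER4 and HPGD and the highest for PTGS1. With length and GC content corrected for, the same members, PTGS2, PTGER4 and PTGES, were differentially expressed.

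Short windows of the promoters of the differentially expressed members are shown because each holds a known promoter element near the start of the gene. The start sites are those of RefSeq, and that of PTGS2 lies inside the Gencode span of the gene given below, which reaches further upstream. The sequences are those of RefSeq on GRCh38.p14, 5′ to 3′ on the strand of the gene. The capitals mark the matched letters. Of PTGS2, on the minus strand, the windows lie at chr1:186680438-186680467 and chr1:186680465-186680493. Of PTGER4, on the plus strand, the window lies at chr5:40679829-40679857, and of PTGES, on the minus strand, at chr9:129753103-129753132.
PTGS2 TATA box: ggttttcagtctTATAAAaaggaaggttct
PTGS2 CRE half-site: aaacagtcatttCGTCAcatgggcttggt
PTGER4 CCAAT box: cttccaatccggCCAATgggcgcccgggc
PTGES GC box: ggggcggggcgtGGGCGGtgctggctgcag
The TATA box of PTGS2 (letters TATAAA) began 32 bases before the start site. The half-site of the cAMP response element (letters TGACG) lay on the opposite strand, and its match began 58 bases before the start site. The CCAAT box of PTGER4 (letters CCAAT) began 74 bases before the start site, and a second match is seen in lower case in the same window, at 83 bases. The GC box of PTGES (letters GGGCGG) began 78 bases before the start site, with another match at 89 bases in the same window. The search covered both strands of the 250 bases before the start in 12 promoters listed for the 8 members, PTGER2 included. Among 35116 promoters of the same length, 10.7% held the TATA box, 21.2% the half-site, 32.0% the CCAAT box and 42.6% the GC box. The AP-1 letters TGANTCA and the RUNX letters TGTGGT, found in 6.57% and 11.0% of all promoters, did not occur in the windows searched for the members. The letters printed are not particular to these genes. The letters of the TATA box also occurred in a promoter of PTGS1, but on the opposite strand and 208 bases before the start site. The half-site occurred in promoters of HPGD, PTGES3 and PTGER2, the CCAAT box in those of PTGS2 and HPGD, and the GC box in promoters of all members but PTGS2. A match describes letters and does not show that a factor binds.

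PTGS1, the constitutive cyclooxygenase, has the identifier ENSG00000095303.13 and lies at chr9:122370530-122395703 of hg38 on the plus strand. Its control replicates 1 to 3 had 699.3, 247.2 and 923.7 normalized counts, and its depleted replicates 1 to 3 had 527.2, 474.7 and 456.1. The depleted samples were close together and lay within the range of the controls, which control replicate 2 opened at the lower end. The means were 623 ± 345 and 486 ± 36.9 (SD, n = 3 in each condition). For PTGS1 the log2 fold change of -0.16 (standard error 0.47) had a 95% interval from -1.24 to 0.92 and a limma Benjamini-Hochberg adjusted p of 0.900. Its sign turned to 0.02 without control replicate 1 and to 0.22 without control replicate 3.

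PTGS2, the inducible cyclooxygenase known as COX-2, has the identifier ENSG00000073756.10 and lies at chr1:186671791-186680922 on the minus strand. It had 43.9, 19.3 and 28.5 normalized counts in the controls, from 35, 33 and 29 reads, and 117, 281 and 373 in depleted replicates 1 to 3, from 128, 428 and 167 reads. The conditions did not overlap, and depleted replicate 1 was the lowest of the depleted samples. The means were 30.6 ± 12.4 and 257 ± 130 (SD, n = 3 in each condition). PTGS2 rose by 2.95 on the log2 scale (standard error 0.56, 95% interval 1.68 to 4.22, limma Benjamini-Hochberg adjusted p = 0.0182). Of the 6 fits with 1 sample left out, PTGS2 passed in 3, and its log2 fold change stayed between 2.61 and 3.44 in all of them. It did not pass without control replicate 2 (2.67, limma adjusted p = 0.0572), depleted replicate 2 (2.81, limma adjusted p = 0.0936) or depleted replicate 3 (2.61, limma adjusted p = 0.101).

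Divided by exon length, PTGS1 had 108 ± 59.6 normalized counts per kb in control cells and PTGS2 had 5.58 ± 2.26 (SD, n = 3). Without growth factors the levels were 84.0 ± 6.37 for PTGS1 and 46.9 ± 23.7 for PTGS2. As a share of the summed level per kb of the pair, PTGS2 made up 6.21%, 7.62% and 3.15% in the control samples and 19.0%, 38.4% and 46.3% in depleted replicates 1 to 3. PTGS1 remained the more abundant of the pair in each sample. The mean shares were 5.66% ± 2.28 and 34.6% ± 14.1 (SD, n = 3 in each condition), with no overlap between the conditions.

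PACERR, an antisense RNA that starts next to PTGS2, lies at chr1:186680601-186683165 on the plus strand. Its normalized counts were 6.3, 1.2 and 0 in control cells and 6.4, 7.9 and 6.7 in depleted cells. These values are near the floor of 3 reads and the gene fell below the minimum mean, so it was not tested. The annotated ends of PTGS2 and PACERR overlap and the strand setting of the read counting is not given in the sources used here, so reads from the overlap may not be told apart.

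PTGES, which encodes microsomal prostaglandin E synthase-1 and is usually induced together with PTGS2, has the identifier ENSG00000148344.10 and lies at chr9:129738331-129753042 on the minus strand. Control replicates 1 to 3 had 12698, 16297 and 5123 normalized counts of PTGES, and depleted replicates 1 to 3 had 3741, 2255 and 1916. All depleted samples lay below all control samples, although control replicate 3 came close to depleted replicate 1. The means were 11373 ± 5703 and 2637 ± 970 (SD, n = 3 in each condition). PTGES had a log2 fold change of -2.01 (standard error 0.48, 95% interval -3.11 to -0.91, limma Benjamini-Hochberg adjusted p = 0.0459). The adjusted p lay near the threshold, and of the 6 fits with 1 sample left out the gene passed in 2, with log2 fold changes from -2.51 to -1.67. It did not pass without control replicate 1 (-1.85, limma adjusted p = 0.147), control replicate 2 (-1.67, limma adjusted p = 0.124), depleted replicate 2 (-1.93, limma adjusted p = 0.168) or depleted replicate 3 (-1.81, limma adjusted p = 0.184), nor when limma was run without a trend (limma adjusted p = 0.0812).

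PTGES2, the membrane-associated synthase microsomal prostaglandin E synthase-2, has the identifier ENSG00000148334.13 and lies at chr9:128120693-128128462 on the minus strand. It had 639, 925 and 399 normalized counts in the controls and 729, 485 and 619 in the depleted samples. The depleted samples fell within the range of the controls. PTGES2 had a log2 fold change of -0.04 (standard error 0.37, 95% interval -0.87 to 0.80, limma Benjamini-Hochberg adjusted p = 0.977).

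PTGES3, the cytosolic synthase, is also the HSP90 co-chaperone p23, has the identifier ENSG00000110958.14 and lies at chr12:56663341-56688408 on the minus strand. It had 3099, 3572 and 1492 normalized counts in the controls and 2646, 2699 and 2920 in the depleted samples. Here too the depleted samples lay within the range of the controls, of which replicate 3 was low. For PTGES3 the log2 fold change was 0.11 (standard error 0.36, 95% interval -0.72 to 0.94, limma Benjamini-Hochberg adjusted p = 0.912). Processed pseudogenes of PTGES3 are counted as genes of their own and share its sequence. PTGES3P1 alone had 858.5, 969.6 and 373.8 normalized counts in the controls and 713.0, 771.7 and 766.9 in the depleted samples. The value of PTGES3 itself is therefore uncertain, although this copy too did not pass (log2 fold change 0.15, limma Benjamini-Hochberg adjusted p = 0.885).

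By the reads counted on each gene itself, PTGES was the most abundant of the prostaglandin E synthases per kb of exon in each sample. PTGES had 6014 ± 3016 normalized counts per kb in control cells and 1395 ± 513 without growth factors (SD, n = 3 in each condition). PTGES3 had 801 ± 321 and 811 ± 42.8 on the same scale, and PTGES2 had 108 ± 43.3 and 100 ± 20.1. The share of PTGES in the summed level of these synthases was 86.8%, 87.8% and 84.3% in the control samples and 68.8%, 57.7% and 51.3% in depleted replicates 1 to 3. The conditions did not overlap, with means of 86.3% ± 1.79 and 59.3% ± 8.82 (SD, n = 3 in each condition). Reads counted on the PTGES3 pseudogenes are left out of these values, so the shares of PTGES may be too high. In depleted replicate 3 PTGES had 1013 normalized counts per kb and PTGES3 had 859, so the lead of PTGES there is not certain.

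**Figure D2:**
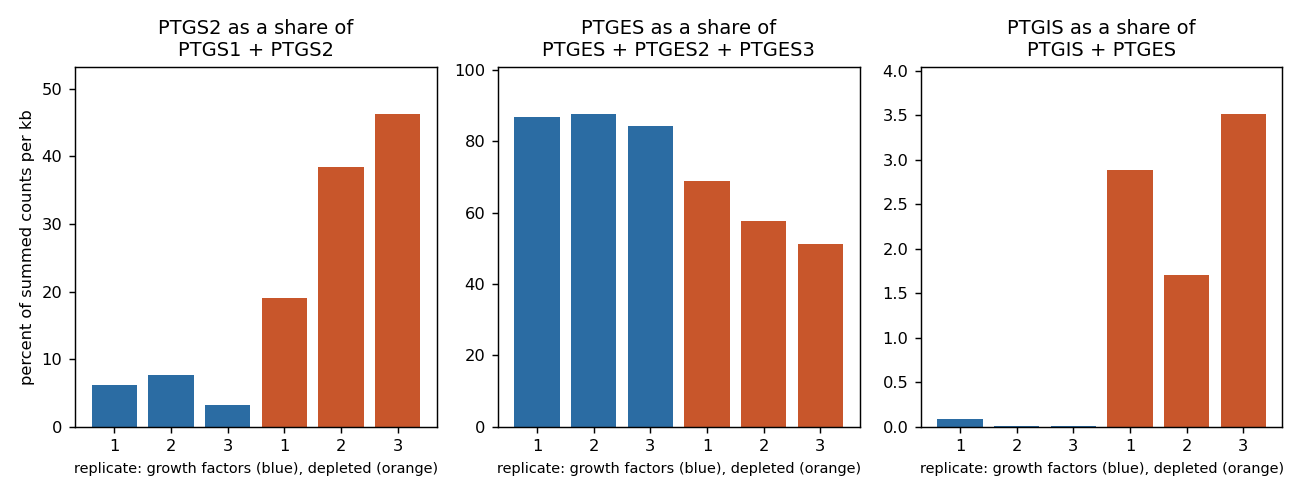
Shares of the summed normalized counts per kb of exon, in percent, for each replicate of the control samples (blue bars) and the depleted samples (orange bars). PTGS2 rose from 5.66% to 34.6% of the cyclooxygenases on average, PTGES made up 86.3% and then 59.3% of the prostaglandin E synthases, and PTGIS, which makes prostacyclin, stayed at or under 3.52% of PTGIS plus PTGES. Reads counted on the PTGES3 pseudogenes are not included.

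PTGER4, which encodes the Gs-coupled receptor EP4, has the identifier ENSG00000171522.5 and lies at chr5:40679915-40693735 on the plus strand. It had 42.6, 73.2 and 18.7 normalized counts in the controls, from 34, 125 and 19 reads, and 155, 693 and 487 in depleted replicates 1 to 3, from 169, 1057 and 218 reads. The lowest depleted sample, replicate 1, was still above the highest control sample. The means were 44.8 ± 27.3 and 445 ± 272 (SD, n = 3 in each condition). PTGER4 rose by 3.23 on the log2 scale (standard error 0.68, 95% interval 1.68 to 4.79, limma Benjamini-Hochberg adjusted p = 0.0278). Of the 6 fits with 1 sample left out, PTGER4 passed in 3, with log2 fold changes between 2.72 and 3.87. It did not pass without control replicate 1 (3.29, limma adjusted p = 0.0848), depleted replicate 2 (2.79, limma adjusted p = 0.124) or depleted replicate 3 (3.04, limma adjusted p = 0.121).

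HPGD, the 15-hydroxyprostaglandin dehydrogenase that begins the inactivation of prostaglandin E2, has the identifier ENSG00000164120.12 and lies at chr4:174490175-174523154 on the minus strand. Control replicates 1 to 3 had 592.8, 1461.1 and 15.7 normalized counts of HPGD, from 473, 2494 and 16 reads. The depleted samples had 74.1, 65.6 and 31.3 normalized counts, from 81, 100 and 14 reads. Control replicates 1 and 2 lay above all depleted samples, whereas control replicate 3 lay below all of them. The log2 fold change of -2.16 (standard error 1.42) had a 95% interval from -5.41 to 1.08 and did not pass (limma Benjamini-Hochberg adjusted p = 0.463). Without control replicate 3 the log2 fold change of HPGD was -4.10 (limma adjusted p = 0.00577). The tests on reads gave an adjusted p of 0.135 (edgeR, Benjamini-Hochberg) and 0.0034 (DESeq2, Benjamini-Hochberg).

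**Figure D3:**
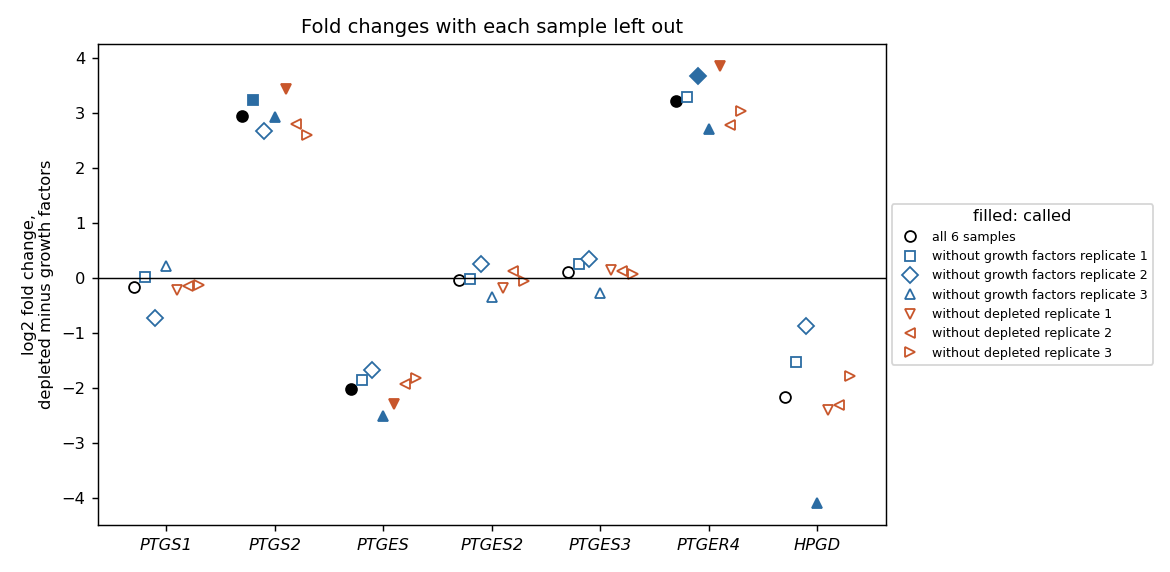
Log2 fold change (depleted minus control) of each member with all 6 samples (black circles) and with 1 control sample (blue) or 1 depleted sample (orange) left out, where filled symbols mark fits in which the gene was differentially expressed. PTGS2 stayed at or above 2.61, PTGER4 at or above 2.72 and PTGES at or below -1.67 in each fit, and HPGD ranged from -4.10 to -0.87.

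On the scale of normalized counts per kb of exon, the order of the members in control cells was PTGES, PTGES3, HPGD, PTGS1, PTGES2, PTGER4 and PTGS2. Without growth factors it was PTGES, PTGES3, PTGER4, PTGES2, PTGS1, PTGS2 and HPGD. PTGER4 moved from 12.7 ± 7.71 to 126 ± 76.7 normalized counts per kb, and HPGD from 125 ± 132 to 10.3 ± 4.10 (SD, n = 3 in each condition). In control cells the samples of HPGD, PTGS1 and PTGES2 overlapped, as did those of PTGER4 and PTGS2, and the lowest sample of HPGD lay below all samples of the others, so the order within these groups is not larger than the spread. In depleted cells the same holds for PTGER4, PTGES2 and PTGS1, and the lowest sample of PTGER4 also fell within the range of PTGS2.

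The genes of supply, other synthases and receptors, transport and signalling were described by 8 lists with 92 genes, of which 67 had values and 66 were tested. Of these, 5 were up-regulated and 5 down-regulated, and the median log2 fold change was -0.24. Read against the 4.36% and 1.97% of all genes, this is a description of the lists and not a test of them. The plot of fold changes by role shows the intervals of the members and of the supply, synthase, receptor and transport genes.

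**Figure D4:**
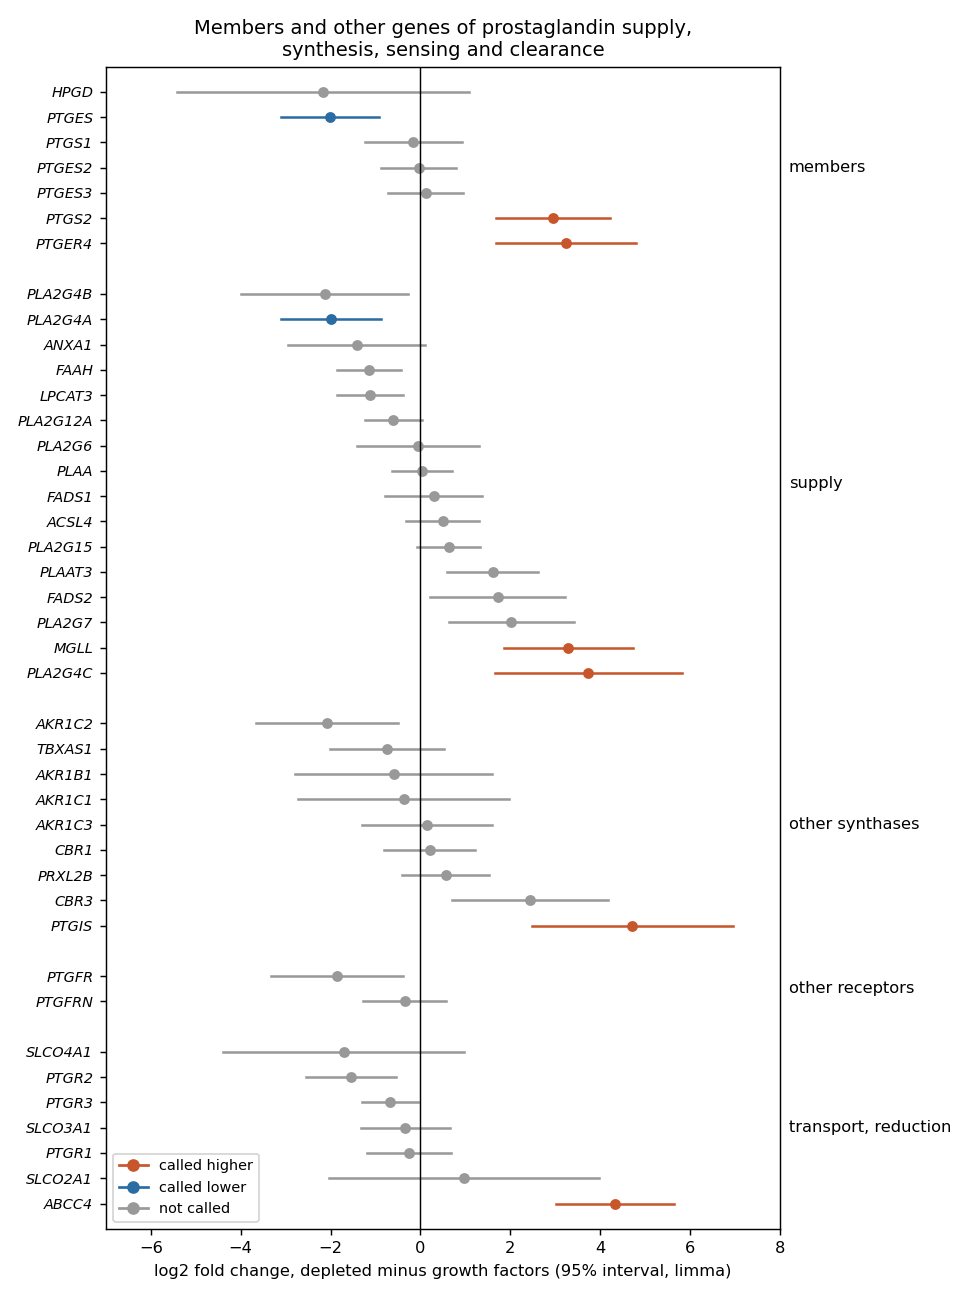
Log2 fold change (depleted minus control, limma) with its 95% interval for the 7 members and the tested genes of arachidonate supply, other prostanoid synthases, other receptors, and transport and reduction. Orange marks up-regulated genes, blue down-regulated genes and gray the genes that did not pass; ABCC4 and PTGIS lay furthest to the right at 4.33 and 4.72.

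For the supply of arachidonic acid, 16 of the 23 listed genes were tested, of which 2 were up-regulated and 1 was down-regulated, with a median log2 fold change of 0.16. PLA2G4A, the cytosolic phospholipase A2 that releases arachidonic acid, had 828, 431 and 271 normalized counts in the controls and 76.9, 121 and 161 in the depleted samples. PLA2G4A fell by 1.99 on the log2 scale (limma Benjamini-Hochberg adjusted p = 0.0484). MGLL, monoacylglycerol lipase, had 241, 1047 and 175 normalized counts in the controls and 4954, 2455 and 3450 in the depleted samples. MGLL had a log2 fold change of 3.29 (limma Benjamini-Hochberg adjusted p = 0.0190). PLA2G4C, the calcium-independent member of the cytosolic phospholipases, had 0, 1 and 6 reads in the controls and 15, 49 and 23 in the depleted samples. A log2 fold change of 3.73 for PLA2G4C (limma Benjamini-Hochberg adjusted p = 0.0492) rests on these low counts and did not pass in edgeR (adjusted p = 0.0859). Its control mean of 2.16 normalized counts lay under the minimum mean of 10, which it reached only through the depleted samples. PLA2G4A and PLA2G4C each passed in 1 of the 6 fits with a sample left out, the one without control replicate 3, and MGLL passed in 2, those without control replicate 2 or control replicate 3.

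Among the other prostanoid synthases, 9 of 11 listed genes were tested, 1 was up-regulated and the rest did not pass. PTGIS, prostacyclin synthase, had 33.8, 5.3 and 1.0 normalized counts in the controls and 326.8, 115.4 and 205.7 in the depleted samples. The log2 fold change of PTGIS was 4.72 (limma Benjamini-Hochberg adjusted p = 0.0263), with an adjusted p of 0.0554 in edgeR, and it passed in 2 of the 6 fits with a sample left out. It did not pass without control replicate 2 or without any one of the depleted samples. Per kb of exon it came to 0.090%, 0.011% and 0.007% of PTGIS plus PTGES in the controls and to 2.88%, 1.71% and 3.52% in the depleted samples. For the thromboxane synthase TBXAS1 the log2 value was -0.74 (limma adjusted p = 0.529), and PRXL2B, which reduces prostaglandin H2 to prostaglandin F2α, had 0.56 (limma adjusted p = 0.538). The carbonyl reductases had 0.20 for CBR1 (limma adjusted p = 0.858) and 2.44 for CBR3 (limma adjusted p = 0.106). Of the aldo-keto reductases, AKR1B1 had -0.59 (limma adjusted p = 0.797), although its mean was higher without growth factors (5124 and 6233 normalized counts), since depleted replicate 1 had 15977 and the other depleted samples 912 and 1809. AKR1C1, AKR1C2 and AKR1C3 had -0.37, -2.07 and 0.15 (limma adjusted p = 0.892, 0.130 and 0.934), and as close paralogs they can share reads, so that their separate values are uncertain. AKR1C1 too was high in depleted replicate 1 alone, at 4042 normalized counts against 157 and 402, and its means were 891 and 1534.

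Of the other prostanoid receptors, 2 of 8 listed genes were tested and 0 passed in limma, edgeR or DESeq2, while 1 had an unadjusted p under 0.05 in each of these tests. PTGFR, the receptor of prostaglandin F2α, had 314.6, 124.8 and 129.9 normalized counts in the controls and 52.2, 95.1 and 20.1 in the depleted samples. Its samples did not overlap, but PTGFR did not pass, at a log2 fold change of -1.86 (limma Benjamini-Hochberg adjusted p = 0.142). PTGFRN, a membrane protein that binds this receptor and inhibits it, had a log2 fold change of -0.35 (limma Benjamini-Hochberg adjusted p = 0.701).

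For transport and reduction, all 7 listed genes were tested and 1 was up-regulated. ABCC4, the multidrug resistance protein that exports prostaglandins from the cell, had 12.5, 18.2 and 24.6 normalized counts in the controls and 834.7, 278.7 and 230.3 in the depleted samples. Its lowest depleted sample was far above its highest control sample. The log2 fold change of ABCC4 was 4.33 (limma Benjamini-Hochberg adjusted p = 0.00407), and it passed in all 6 fits that left out a sample. The uptake transporters SLCO2A1, SLCO3A1 and SLCO4A1 had log2 fold changes of 0.97, -0.34 and -1.71 (limma adjusted p = 0.750, 0.737 and 0.488). SLCO4A1 was high in depleted replicate 1, at 1132 normalized counts against 30.2 and 53.7 in replicates 2 and 3. Its controls had 618, 247 and 442, and its means were 435 and 405. SLCO2A1 had 0.9, 76.7 and 22.4 in depleted replicates 1 to 3. The prostaglandin reductases PTGR1, PTGR2 and PTGR3 had -0.25, -1.54 and -0.68 (limma adjusted p = 0.802, 0.0796 and 0.201).

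In the lipoxygenase and leukotriene branch, which uses the same arachidonic acid, 8 of 17 listed genes were tested and 2 were down-regulated, with a median log2 fold change of -0.95. ALOX15B, a 15-lipoxygenase of epithelia, had 347.1, 198.6 and 72.8 normalized counts in the controls and 2.7, 3.9 and 4.5 in the depleted samples, the latter from 3, 6 and 2 reads. ALOX15B had a log2 fold change of -5.21 (limma Benjamini-Hochberg adjusted p = 0.00349) and passed in all 6 fits that left out a sample. Its depleted mean of 3.72 lay under the minimum mean of 10, which it reached only through the controls. LTA4H, the hydrolase that makes leukotriene B4, had a log2 fold change of -1.40 (limma Benjamini-Hochberg adjusted p = 0.0358) and passed in 2 of the 6, those without control replicate 3 or depleted replicate 1.

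Downstream of EP receptors, 16 of the 17 listed genes of Gs, adenylyl cyclases, protein kinase A, CREB and PDE4 were tested, 1 rose and 1 fell. ADCY3, an adenylyl cyclase, had a log2 fold change of -2.26 (limma Benjamini-Hochberg adjusted p = 0.00859) and passed in all fits but that without depleted replicate 2. PRKACB, a catalytic subunit of protein kinase A, had a log2 fold change of 1.20 (limma Benjamini-Hochberg adjusted p = 0.0337) and passed in 1 of the 6 fits, that without control replicate 3. GNAS, which encodes the Gs protein, had a log2 fold change of 0.40 (limma Benjamini-Hochberg adjusted p = 0.597).

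Of the HSP90 partners of PTGES3, all 8 were tested and 1 fell. FKBP5, an HSP90 co-chaperone and a textbook target of the glucocorticoid receptor, had a log2 fold change of -3.84 (limma Benjamini-Hochberg adjusted p = 0.00268) and passed in all 6 fits that left out a sample. HSP90AA1 and HSP90AB1, the HSP90 genes themselves, had log2 fold changes of 0.23 and -0.30 (limma adjusted p = 0.791 and 0.766).

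The genes whose profiles over the 6 samples were most like those of the differentially expressed members were found by Euclidean distance between centered log2 values, among 10583 protein-coding genes with a mean of at least 100. For PTGS2 they were CEMIP2, MLLT11 and TLN2, at distances of 0.529, 0.587 and 0.702. For PTGES they were UBXN8, PYGB and TRAP1, at 0.518, 0.548 and 0.602. For PTGER4 they were PTPRB, GLIPR1 and LIF, at 0.785, 1.25 and 1.30. The neighbors of PTGER4 thus lay further away than those of PTGS2 and PTGES. PTPRB, GLIPR1 and LIF did not themselves pass (limma adjusted p = 0.0616, 0.0744 and 0.0527), nor did UBXN8 (limma adjusted p = 0.0858), while the other neighbors did.

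Markers of mammary epithelial and of other cell types were summed in each sample. The luminal markers (7 of 8 with values, KRT19 down-regulated) summed to between 8935 and 18492 normalized counts in control cells and between 18326 and 31554 in depleted cells. In the highest of these sums, those of depleted replicates 2 and 3, KRT8 stood at 11928 and 19305. Of the 7 luminal markers tested, 5 had a negative log2 fold change, and the median of the list was -0.98. That median is the value of EPCAM, whose depleted samples disagreed. EPCAM had 153 normalized counts in depleted replicate 1 and 2281 and 2486 in depleted replicates 2 and 3. In the controls it had 3990, 1899 and 887, so the median does not describe a fall shared by the depleted samples. The basal markers (6 of 6, TP63 down-regulated) summed to between 42471 and 65489 and between 40940 and 148153. The highest sums came from KRT17, at 61384 and 123480 in depleted replicates 2 and 3, while 4 of the 6 basal markers had a negative log2 fold change and their median was -0.68. KRT5, one of these 4, had 562 normalized counts in depleted replicate 1 and 10908 and 14997 in depleted replicates 2 and 3. Its controls had 38503, 12739 and 13008. The fibroblast markers changed between the conditions in the same direction as PTGS2 and PTGER4, in that 6 of the 7 tested of 8 were up-regulated, against 4.36% of all genes. Of these, LUM, PDGFRA and PDGFRB had control means of 1.58, 0.94 and 6.95, under the minimum mean of 10. They entered the test only through the depleted samples, so their calls were favored by the filter. The sum of the fibroblast markers lay between 225 and 451 normalized counts in the controls and was 33378, 14610 and 9957 in depleted replicates 1 to 3. Depleted replicate 1 had the highest sum of fibroblast markers and the lowest PTGS2 and PTGER4 of the depleted samples. LUM was listed at 0 in control replicate 2 and THY1 at 0 in control replicates 1 and 2. Of the leukocyte markers, 4 of 8 had values and summed to between 437 and 1078 in control and between 420 and 677 in depleted cells. By limma, edgeR and DESeq2, 0 of the 3 leukocyte markers tested passed, and 0 had an unadjusted p under 0.05. The defining marker PTPRC had at most 2.0 normalized counts in the controls, where control replicate 2 was at 0, and between 10.1 and 13.8 in the depleted samples. The endothelial markers, 4 of 6 with values, summed to between 167 and 1787 and between 265 and 1610, with CDH5 up-regulated. The control mean of CDH5 was 5.93, so it too reached the minimum mean only through the depleted samples. KDR went the other way without overlap, at 778, 32.2 and 66.9 normalized counts in the controls and 0, 24.9 and 22.4 in the depleted samples. KDR did not pass (log2 fold change -3.83, limma Benjamini-Hochberg adjusted p = 0.193). PECAM1 hardly changed by log2 fold change (0.09, limma Benjamini-Hochberg adjusted p = 0.981), and it had 1582 normalized counts in depleted replicate 1. The part of these markers in the changes of the prostaglandin genes was not tested.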

How the data were processed

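RNA-Seq was available for 6 samples, 3 control and 3 growth factor depleted, grouped by the sample labels. The authors deposited normalized counts per gene, a signal in which reads were divided by the size factor of the sample and not by gene length. Per the methods and the submitters' processing notes, strand-specific libraries were read as single ends of 100 bases, trimmed with cutadapt 1.6, mapped to hg38 with TopHat2, counted with HTSeq 0.6 on Gencode v22 and normalized with DESeq2 1.8.1 in R 3.2.0. All values were whole multiples of 1 read (tolerance 0.01 reads), so reads were recovered. All columns of values were used. Gencode v44 named 18913 of the 19198 identifiers and gave coordinates on hg38 and exon lengths.

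The conditions were compared by fitting log2 values of the normalized count plus 1 in limma 3.58.1 (R 4.3.3, trended eBayes). All 6 samples entered, with no covariate, and the 16988 genes whose mean reached 10 were kept and adjusted together by Benjamini-Hochberg. In all, 1076 genes passed, 741 higher and 335 lower without growth factors, and 3400 had an unadjusted p under 0.05. For the 3 shares an exact permutation test gave p = 0.1 each. With 3 samples against 3 this is its smallest possible p, so it cannot decide and was not used for single values. The 95% intervals of fold changes rest on the spread between samples, and floors of counts speak of counting error alone.

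Other settings tried were a pseudocount of 0.5 or 10, a minimum mean of 50 or none, equal library totals, quantile normalization, limma without a trend, a replicate block, the removal of length and GC trends with and without the block, edgeR 4.0.16 (quasi-likelihood) and DESeq2 1.42.0 on recovered reads, an adjusted p under 0.1, and each sample left out in turn. The members and lists were chosen with earlier results of these data known. The genes named are all members, the genes of the lists that passed, all tested genes of the receptor, synthase and transport lists, PACERR, and for each differentially expressed member the 3 nearest genes by profile. Other genes (PTGES3P1, GNAS, HSP90AA1, HSP90AB1 and the cell type markers) were named after their values were seen. Figures were drawn in Python 3.11.15, pandas 2.3.3 and matplotlib 3.10.9.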

Additional observations from a re-analysis of the deposited data

How the results depend on the processing

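The number of members that passed, 3, was 3 with the same genes (PTGS2, PTGER4 and PTGES) under both other pseudocounts, both other filters, equal library totals, quantile normalization, the length and GC correction, edgeR and an adjusted p under 0.1. It was 4 with DESeq2, which added HPGD, and 2 in limma without a trend, which lost PTGES. Leaving out 1 sample at a time gave between 0 and 4. By limma 0 members passed without depleted replicate 2 or depleted replicate 3, where 3 had an unadjusted p under 0.05 in each case, 1 passed without control replicate 1 or control replicate 2, and 4 without control replicate 3. Fewer samples enter these fits, and the cause was not tested further.

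The number of pathway genes that passed, 10, was 20 with DESeq2 and 18 at an adjusted p under 0.1, and leaving out 1 sample at a time gave from 3 to 15. Over all genes, where 1076 passed, DESeq2 gave 2112, and the fits without a sample gave from 445 without depleted replicate 2 and 459 without depleted replicate 3 to 2483 without control replicate 3. They gave 645 and 681 without control replicates 1 and 2. The cause was not tested.

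PTGS1, PTGES2 and PTGES3, which did not pass, changed sign under some settings, and HPGD did not. The log2 fold change of PTGES2 was 0.012 with equal library totals and 0.012 with quantile normalization, and between -0.35 and 0.25 with each sample left out. With each sample left out, that of PTGS1 lay between -0.73 and 0.22 and that of PTGES3 between -0.27 and 0.36.

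Same-numbered samples of the conditions showed no positive correlation of their deviations across genes, at -0.07, -0.28 and -0.32. Deviations were centered within each condition of 3 samples, which ties the correlations to one another, and they still hold the length trends. This check therefore cannot tell whether same-numbered samples shared a batch. With the replicate number as a block, the 3 members passed alike (limma adjusted p = 0.0240 for PTGS2, 0.0116 for PTGER4 and 0.0302 for PTGES), as did 7 pathway genes and 967 genes in all. PLA2G4A, LTA4H and PRKACB did not pass with the block (limma adjusted p = 0.0720, 0.0750 and 0.139). With the block and the length and GC correction together, 3 members, 7 pathway genes and 751 genes passed. No sample correlated best with the sample of its own number. The depth limits PTGS2, PTGER4 and HPGD most, which had fewer than 50 reads in at least one sample.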
